A study of Rattus norvegicus with 6 samples.

Results

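The let-7 and miR-98 family consists of microRNAs (miRNAs) that share the same stretch of bases near their start. Together they held 7.20% to 11.2% of the miRNA reads listed for each library of circulating rat exosomes. The family was examined through its 9 mature 5p arms, which are rno-let-7a-5p, rno-let-7b-5p, rno-let-7c-5p, rno-let-7d-5p, rno-let-7e-5p, rno-let-7f-5p, rno-let-7g-5p, rno-let-7i-5p and rno-miR-98-5p. The members were chosen by name, and all 9 were found among the 867 miRNA sequences listed by the authors. Male Sprague-Dawley rats aged 6 to 8 weeks, 10 per group and all on a normal diet, received by gavage either 1000 mg/kg/d of Naoxintong Capsule (NXT), a Chinese medicine given for cardiovascular and cerebrovascular disease, or 5 mL/kg/d of saline. Circulating exosomes, the small vesicles that cells release into body fluids, were isolated from serum by ultracentrifugation, and their small RNA was sequenced. The comparison used 5 libraries of exosomes from NXT-treated rats (NXT-Exo 1 to 5) and 1 library from a saline-treated rat group (Ctl-Exo 5). Further control libraries were not used here. Dosing lasted 7 days by the titles, but a separate treatment label counts up from 7 days in NXT-Exo 1 through 8, 9 and 10 to 11 days in NXT-Exo 5, and it also reads 11 days for the control library. A serum total of 110 mL was ultracentrifuged and the exosomes were stored in aliquots, but the labels do not say whether a library came from 1 rat or from pooled serum. The spread between NXT-Exo libraries may thus be partly or wholly technical. SDs, SEs, intervals and p-values below are over libraries and not over rats.

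let-7 was one of the first miRNAs to be discovered, as a regulator of developmental timing in worms, and its family is conserved across animals. A miRNA is cut from a hairpin precursor, loaded into an Argonaute protein, and pairs through its seed, bases 2 to 8, with messenger RNAs that are then repressed. Known targets of let-7 include the mRNAs of HMGA2, RAS and LIN28, and the LIN28 protein in turn blocks let-7 maturation in stem cells. In adult tissues and in blood the family is usually abundant.

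The sequences show why the family is treated as 1 unit and why its members are hard to tell apart. They are written 5′ to 3′ as deposited, with T for U, and the capitals mark the seed.
let-7a-5p: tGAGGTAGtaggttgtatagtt
let-7b-5p: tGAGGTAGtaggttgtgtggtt
let-7c-5p: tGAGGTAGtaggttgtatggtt
let-7d-5p: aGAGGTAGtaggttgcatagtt
let-7e-5p: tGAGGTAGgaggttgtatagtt
let-7f-5p: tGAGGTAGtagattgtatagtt
let-7g-5p: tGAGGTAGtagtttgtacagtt
let-7i-5p: tGAGGTAGtagtttgtgctgtt
miR-98-5p: tGAGGTAGtaagttgtattgtt
All 9 had 22 bases, carried the same seed and were identical to the RefSeq mature sequences of the rat assembly GRCr8. Of the 22 positions, 14 were the same in every member and 8 varied. Counted from 1 at the 5′ end, with the base of let-7a-5p first, the substitution was G12A in let-7f-5p, A19G in let-7c-5p and T9G in let-7e-5p, so each of these differed from let-7a-5p by 1 base. The other pair at 1 base was let-7c-5p and let-7b-5p, with A17G from the first to the second. let-7g-5p carried G12T and T18C, let-7d-5p T1A and T16C, and miR-98-5p G11A and A19T relative to let-7a-5p, while let-7i-5p was the most distant with G12T, A17G, T18C and A19T. How the authors' counting treated reads with a mismatch is not given in the sources used here, so a read error could move a read between members 1 base apart, and the levels of these pairs are uncertain to that extent.

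In GRCr8 the 9 members map to 12 positions in RefSeq, and whether these are exonic or intronic in the genes they lie within was not determined. On chromosome 17, let-7a-5p (chr17:16320145-16320166, plus strand), let-7f-5p (chr17:16320508-16320529, plus strand) and let-7d-5p (chr17:16322273-16322294, plus strand) lie beside each other within the span of a long non-coding RNA gene. On chromosome X, a second let-7f-5p copy (chrX:24460052-24460073, plus strand) and miR-98-5p (chrX:24460663-24460684, plus strand) lie within the span of Huwe1, a ubiquitin ligase gene. On chromosome 7, let-7c-5p (chr7:118683636-118683657, plus strand) neighbours let-7b-5p (chr7:118684044-118684065, plus strand), and let-7i-5p (chr7:60527935-60527956, minus strand) lies within the span of the predicted gene LOC134479799 with no neighbouring miRNA gene. The other copies of let-7c-5p (chr11:29688127-29688148, plus strand) and let-7a-5p (chr8:50805219-50805240, plus strand) neighbour the genes of miR-99a and miR-100, and let-7e-5p (chr1:67350243-67350264, plus strand) neighbours those of miR-99b and miR-125a within the span of Spaca6, a sperm protein gene. let-7g-5p (chr8:115701026-115701047, plus strand) lies within the spans of Rpl29 and Wdr82. Reads of let-7a-5p, let-7c-5p and let-7f-5p could come from either of their 2 genes and were not divided between them.

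The listed counts summed to 1168686 to 3781718 reads in NXT-Exo and to 1890463 reads in Ctl-Exo 5. After scaling with edgeR's TMM library factors (0.933 to 1.15), 1 read was worth 0.256 to 0.746 CPM, the usual unit of reads relative to the scaled library total, in the 6 libraries. All 9 members had reads in every library, from 247 reads for miR-98-5p in NXT-Exo 4 to 191598 reads for let-7f-5p in NXT-Exo 5. No miRNA in the lists used here defines exosomes, so the label could not be checked against the counts. The summed level of red blood cell miRNAs (miR-451-5p, miR-486, miR-144-3p, miR-144-5p and miR-16-5p, all with reads in every library) was 166691 to 261300 CPM in NXT-Exo, with 222834 CPM in Ctl-Exo 5. Of these 5, edgeR called 0, also at an unadjusted p under 0.05, and 4 had a log2 fold change below 0 (median -0.05). Over all 736 miRNAs tested, 47% had a log2 fold change below 0 (median 0.05). Fewer vesicles of a kind and less RNA per vesicle cannot be told apart in these libraries.

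The share of the family in all listed reads differed between NXT-Exo and the control library by less than the spread among NXT-Exo libraries. This share was 7.20%, 9.46%, 11.1%, 11.2% and 11.0% in NXT-Exo 1 to 5, or 10.0% ± 1.72 (SD, n = 5), against 9.80% in Ctl-Exo 5 (95% Wilson interval 9.76% to 9.84%). NXT-Exo 1 was the lowest, NXT-Exo 3 to 5 lay close together, and Ctl-Exo 5, nearest to NXT-Exo 2, lay inside the NXT-Exo range. The difference of 0.20 percentage points was smaller than the SD. On the TMM scale the summed family level averaged 98551 ± 16820 CPM (SD) over the 5 NXT-Exo libraries, with 105027 CPM in Ctl-Exo 5, so the sign of this small difference depended on the scaling. With 5 libraries against 1, an exact permutation test cannot go below p = 0.167 one-sided, and none was run for these shares.

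Levels within the family spanned more than 2 orders of magnitude, and the same members led in both groups. let-7f-5p was the highest member at 31315, 45587, 56222, 46820 and 49136 CPM in NXT-Exo 1 to 5 and at 46757 CPM in Ctl-Exo 5. It ranked at position 5 among all listed miRNAs by mean level, and Ctl-Exo 5 lay within the NXT-Exo range. let-7a-5p, the founding member in worms, had 9618, 12360, 15439, 10385 and 15325 CPM in NXT-Exo 1 to 5 and 12955 CPM in Ctl-Exo 5. let-7c-5p had 9242, 11540, 14479, 10604 and 13261 CPM in the NXT-Exo libraries, with 13690 CPM in Ctl-Exo 5. let-7i-5p had 8601, 11463, 13370, 13991 and 11140 CPM in the NXT-Exo libraries, with 12166 CPM in Ctl-Exo 5. let-7a-5p, let-7c-5p and let-7i-5p formed a middle group, below let-7f-5p in every library. Their NXT-Exo ranges overlapped almost fully, and Ctl-Exo 5 lay inside each of them. NXT-Exo 1 was the lowest library for let-7f-5p and for each member of this middle group. The highest was NXT-Exo 3 for let-7f-5p, let-7a-5p and let-7c-5p and NXT-Exo 4 for let-7i-5p.

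The next group held let-7b-5p, let-7g-5p and let-7d-5p. let-7b-5p had 6250, 7764, 9053, 6455 and 9132 CPM in NXT-Exo 1 to 5 and 8581 CPM in Ctl-Exo 5. let-7g-5p had 4516, 4812, 5050, 5358 and 4638 CPM in the NXT-Exo libraries, with 6554 CPM in Ctl-Exo 5. let-7d-5p, the only member whose first base differs, had 2775, 3427, 4289, 3829 and 3679 CPM in the NXT-Exo libraries, with 3969 CPM in Ctl-Exo 5. Of these, only let-7g-5p had every NXT-Exo library below Ctl-Exo 5. let-7e-5p and miR-98-5p were far lower. let-7e-5p had 170.0, 185, 215, 203 and 249 CPM in NXT-Exo 1 to 5 and 166 CPM in Ctl-Exo 5, so that every NXT-Exo library was above the control library. miR-98-5p had 130.4, 127, 178, 184 and 190 CPM in the NXT-Exo libraries, with 188 CPM in Ctl-Exo 5, which lay inside the NXT-Exo range. By mean level over all listed miRNAs, let-7e-5p ranked at 135 and miR-98-5p at 141.

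**Figure D1:**
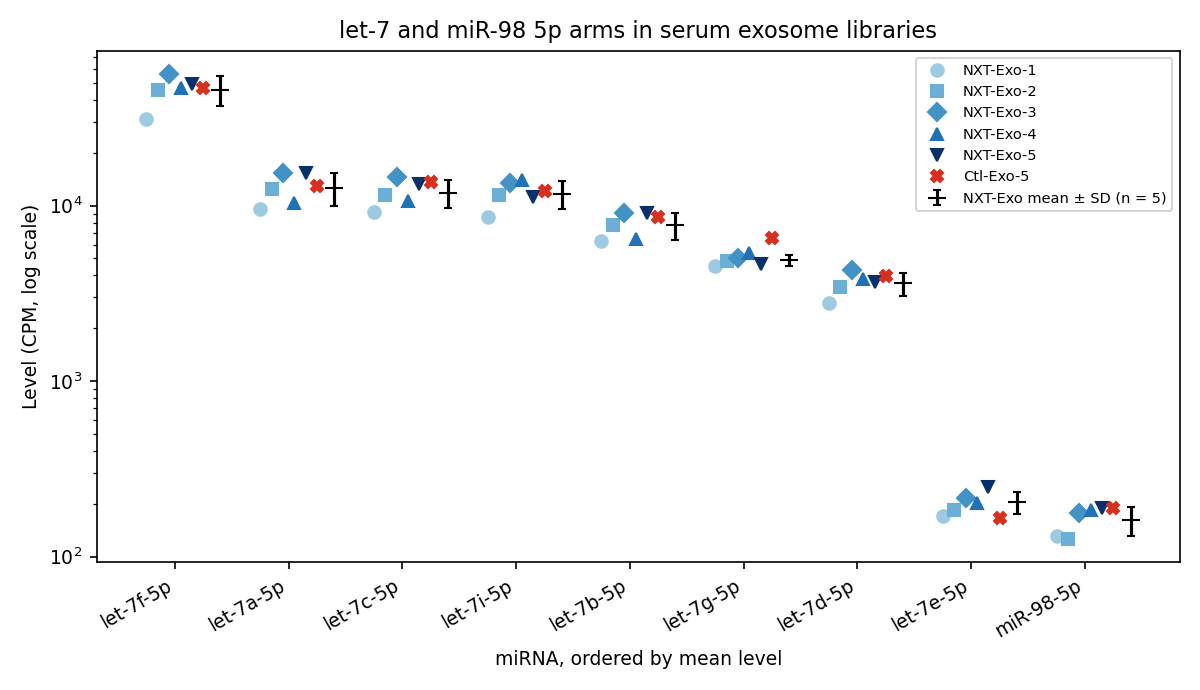
Level of each family member (CPM, log axis) in the 5 NXT-Exo libraries (blue) and in Ctl-Exo 5 (red cross), with the NXT-Exo mean ± SD (n = 5) in black. let-7f-5p is highest, from 31315 to 56222 CPM in NXT-Exo, let-7e-5p and miR-98-5p lie below 249 CPM, and Ctl-Exo 5 falls outside the NXT-Exo points for let-7g-5p and let-7e-5p.

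The order of the members was then tested on the ratio of their reads within each library, which is free of library scaling. All members have the same length, but whether library preparation captured each sequence equally was not tested. The order is thus one of reads, and a capture difference that recurs in every library cannot be told apart from a difference in level. Of 36 pairs, 32 stood in the same order in all 6 libraries, and these 32 had adjusted p = 0.035 in an exact two-sided sign-flip permutation test over 6 libraries, the smallest value that this design allows (unadjusted p = 0.031). let-7f-5p exceeded let-7a-5p by 1.86 ± 0.18 on the log2 scale (SD, n = 6 libraries), or 3.63-fold, although they differ by 1 base. Down the order, let-7i-5p exceeded let-7b-5p by 0.58 ± 0.28, let-7b-5p exceeded let-7g-5p by 0.61 ± 0.28, and let-7g-5p exceeded let-7d-5p by 0.50 ± 0.19 (log2, SD). The widest step was from let-7d-5p to let-7e-5p, at 4.21 ± 0.24 (log2, SD) or 18.5-fold.

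The other 4 pairs did not pass this test. let-7a-5p against let-7c-5p was 0.06 ± 0.10 (log2, SD) with adjusted p = 0.26, let-7a-5p against let-7i-5p was 0.10 ± 0.29 with adjusted p = 0.45, and let-7c-5p against let-7i-5p was 0.04 ± 0.23 with adjusted p = 0.72, all in the same exact permutation test. The order of these members could thus not be resolved. let-7e-5p against miR-98-5p was 0.26 ± 0.25 (log2, SD) with adjusted p = 0.10 in that test. Within this pair, let-7e-5p was above miR-98-5p in all 5 NXT-Exo libraries, with a mean log2 ratio of 0.35 ± 0.15 (SD, n = 5), and below it in Ctl-Exo 5, with -0.18.

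Next, the share of each member in the family reads was compared between NXT-Exo and Ctl-Exo 5, which leaves out any change in the family as a whole. let-7f-5p held 43.1%, 46.9%, 47.5%, 47.9% and 46.0% of the family reads in NXT-Exo 1 to 5 and 44.5% in Ctl-Exo 5. It was thus the largest share in every library. let-7a-5p held 12.8% ± 1.37 (SD, n = 5) in NXT-Exo against 12.3% in Ctl-Exo 5, and let-7i-5p 11.9% ± 1.44 and 11.6%. let-7b-5p held 7.88% ± 0.82 (SD, n = 5) against 8.17%, let-7d-5p 3.67% ± 0.20 against 3.78%, and miR-98-5p 0.165% ± 0.024 against 0.179%. For these members the difference was smaller than the SD, and Ctl-Exo 5 lay inside the NXT-Exo range. For let-7f-5p both depended on NXT-Exo 1, since 4 of the 5 NXT-Exo libraries lay above Ctl-Exo 5. Its difference was 1.76 percentage points against an SD of 1.90, but 2.35 with the NXT-Exo median and 2.55 without NXT-Exo 1.

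For 3 members the share in Ctl-Exo 5 lay outside the NXT-Exo range. let-7g-5p held 6.22%, 4.95%, 4.27%, 5.48% and 4.34% in NXT-Exo 1 to 5 and 6.24% in Ctl-Exo 5 (95% Wilson interval 6.13% to 6.35%). NXT-Exo 1 lay within this interval, and the other 4 libraries lay below it. let-7c-5p held 12.7%, 11.9%, 12.2%, 10.8% and 12.4% in NXT-Exo and 13.0% in Ctl-Exo 5 (95% Wilson interval 12.9% to 13.2%), so all 5 NXT-Exo libraries were below the interval. let-7e-5p held 0.234%, 0.190%, 0.181%, 0.207% and 0.233% in NXT-Exo and 0.158% in Ctl-Exo 5 (95% Wilson interval 0.141% to 0.177%), so all 5 NXT-Exo libraries were above it. The 2 members with Ctl-Exo 5 above all NXT-Exo libraries stand beside 10.7% of the 736 miRNAs tested when each is set against the family reads, and the 1 member with Ctl-Exo 5 below them all stands beside 15.8%. Intervals cover counting error only, and a single control library gives no spread for its group.

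**Figure D2:**
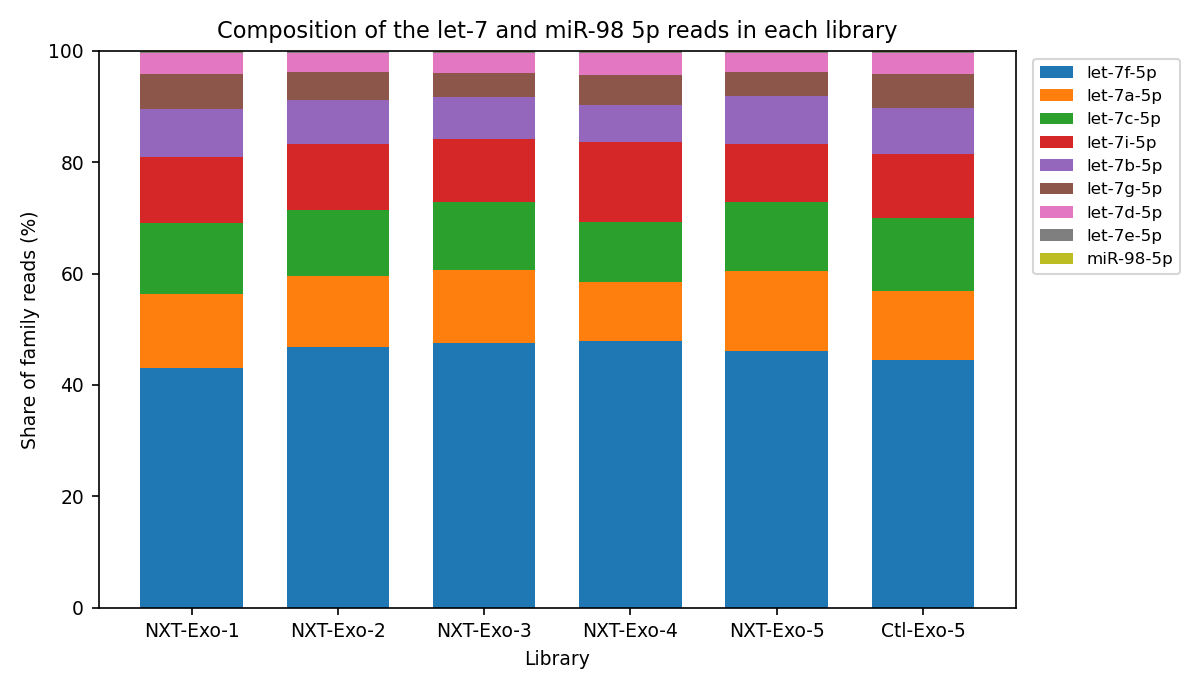
Stacked bars of the share of each member in the family reads (%, from 0 to 100) in each of the 6 libraries. let-7f-5p takes 43.1% to 47.9% of each bar, and let-7e-5p (0.158% to 0.234%) and miR-98-5p (0.130% to 0.188%) are too thin to be seen.

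In the fit across all miRNAs, no member passed the test between NXT-Exo and Ctl-Exo 5. The counts were tested with edgeR's quasi-likelihood test over the 736 miRNAs with at least 10 reads in sum, which all 9 members passed. Since Ctl-Exo has 1 library, the test takes the spread from the NXT-Exo libraries and assumes that the control varies alike. It does not repeat the study's own comparison, which had further control libraries. How large a difference it could detect with 1 control library is not given here. At an adjusted p under 0.05 and a fold of at least 2 or at most 0.5, the thresholds of the study, edgeR called 0 of the 9 members and 0% of the 736 miRNAs, and DESeq2 called 0 as well. At an unadjusted p under 0.05, 0 of the 9 members passed in edgeR and in DESeq2, beside 4.76% of all miRNAs tested in edgeR.

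In this fit only, the 95% intervals of the log2 fold change of NXT-Exo over Ctl-Exo 5 excluded a 2-fold difference for each of the 9 members. Intervals under other settings are not given here, and let-7e-5p reached 0.42 with the listed total only and 0.44 without NXT-Exo 2. let-7g-5p had the largest difference, with -0.43 ± 0.20 (SE) and a 95% interval of -0.86 to 0.0046 (edgeR, unadjusted p = 0.052, adjusted p = 0.77). let-7e-5p had 0.30 ± 0.26 (SE), with an interval of -0.25 to 0.85 and adjusted p = 0.77. The values closest to 0 were -0.03 ± 0.27 (SE) for let-7f-5p, -0.04 ± 0.27 for let-7a-5p and -0.05 ± 0.25 for let-7i-5p. The other values were -0.21 ± 0.25 (SE) for let-7c-5p, -0.15 ± 0.25 for let-7b-5p, -0.14 ± 0.23 for let-7d-5p and -0.22 ± 0.27 for miR-98-5p.

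The median log2 fold change was -0.14 over the 9 members and 0.05 over all miRNAs tested, and 8 of the 9 members had a value below 0, beside 47% of all miRNAs tested. These directions changed with the settings. With each of the 6 other scalings, filters or tools 5 of the 9 were below 0, the values of let-7f-5p, let-7a-5p and let-7i-5p being then slightly above 0, and without 1 NXT-Exo library at a time 4 to 8 were below 0. let-7g-5p was negative (-0.30 to -0.37) and let-7e-5p positive (0.35 to 0.42) in those 6 fits. In CPM, 1 of the 9 members (let-7g-5p) had Ctl-Exo 5 above all 5 NXT-Exo libraries, beside 18.8% of all miRNAs tested, and 1 (let-7e-5p) had it below, beside 14.5%. The 7 platelet and white blood cell miRNAs, all with reads, also had their highest sum in the control library. It was 31514 CPM in Ctl-Exo 5 against 24325 to 27288 CPM among the NXT-Exo libraries, mostly from miR-142-5p (21752 CPM in Ctl-Exo 5). miR-142-5p, miR-142-3p, miR-223-3p and miR-146a-5p were highest in Ctl-Exo 5, whereas miR-150-5p, miR-126a-3p and miR-155-5p were highest in an NXT-Exo library. Of these 7, edgeR called 0, all 7 had a log2 fold change below 0 (median -0.31), and 1 (miR-223-3p, -0.48) had an unadjusted p under 0.05, with adjusted p = 0.77. The part of these cells in the value of let-7g-5p was not tested.

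**Figure D3:**
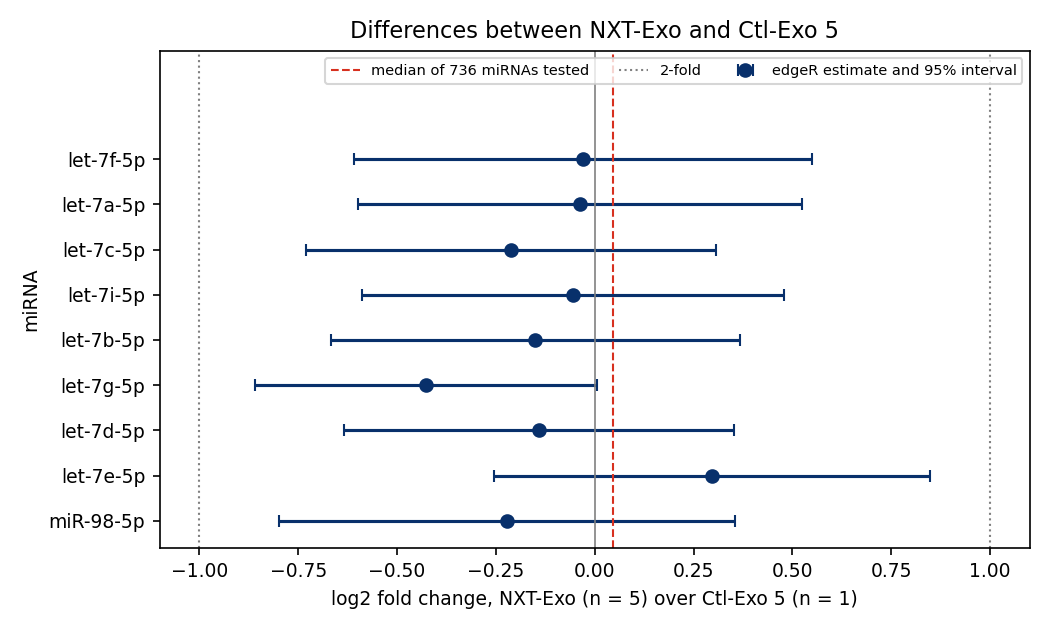
Log2 fold change of NXT-Exo (n = 5) over Ctl-Exo 5 (n = 1) for each member, with the edgeR estimate (point) and its 95% interval (bar), the median of the 736 miRNAs tested (red dashed line) and the 2-fold limits (dotted lines). All 9 intervals of this TMM-scaled fit include 0 and stay inside the 2-fold limits, and let-7g-5p has the lowest estimate at -0.43.

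Members also differed in how much they varied among the NXT-Exo libraries. let-7g-5p was the most even, with an SD of 0.10 on the log2(CPM + 1) scale, and let-7f-5p the least even, with 0.31. The median SD was 0.26 over the 9 members, 0.49 over the 736 miRNAs tested and 0.20 over the 141 tested miRNAs at least as abundant as the lowest member. Across the 6 libraries, the Pearson correlation of a member with the sum of the other members on the log2(CPM + 1) scale was 0.95 for let-7d-5p and for let-7f-5p, but 0.35 for let-7g-5p and 0.54 for let-7e-5p. These values are descriptive, and the 6 points share the scaling of each library.

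Most of the listed sequences with the let-7 seed belonged to the 9 members. In all, 12 listed sequences had the same bases 2 to 8 as let-7a-5p, and the members held 99.5% to 99.7% of their reads in each library. The other 3 carry names without the rat prefix and are members with 2 added bases at the 3′ end, and the capitals again mark the seed.
let-7-x: tGAGGTAGtaggttgtgtggttat
let-7-z: tGAGGTAGtagtttgtgctgttat
miR-98-x: tGAGGTAGtaagttgtattgttaa
let-7-x begins with all 22 bases of let-7b-5p and amounted to 4.97%, 4.48%, 4.22%, 3.71% and 4.39% of the let-7b-5p reads in NXT-Exo 1 to 5 and to 4.53% in Ctl-Exo 5. let-7-z extends let-7i-5p and amounted to 0.262% ± 0.090 (SD, n = 5) of its reads in NXT-Exo and to 0.256% in Ctl-Exo 5. Both control values lay inside the NXT-Exo range. miR-98-x had 0, 0, 1, 0 and 2 reads in NXT-Exo 1 to 5 and 0 reads in Ctl-Exo 5, at or under 3 reads in each library, so no difference was detectable at this depth.

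The opposite, 3p arms of the hairpins were then compared with the 5p arms. A hairpin gives a pair of arms, of which one is usually kept and the other degraded. Of the 12 names in the list of 3p arms, 10 were matched, 9 of these were tested, and edgeR called 0 of 9 at the thresholds above, with 0 also at an unadjusted p under 0.05. let-7a-1-3p and let-7c-2-3p have the same sequence and the same counts, so they cannot be told apart. let-7d was the exception among the hairpins whose arms both belong to 1 gene, since its 3p arm was within 3-fold of its 5p arm in every library. There were 1.14, 1.64, 1.81, 2.32 and 1.60 reads of let-7d-5p per read of let-7d-3p in NXT-Exo 1 to 5 and 1.96 in Ctl-Exo 5, which lay inside the NXT-Exo range. let-7d-3p averaged 2170 ± 320.0 CPM (SD) over the 5 NXT-Exo libraries, with 2028 CPM in Ctl-Exo 5.

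The 5p arm dominated the other hairpins. let-7b-5p had 333 to 752 reads per read of let-7b-3p in NXT-Exo and 322 in Ctl-Exo 5. let-7i-5p had 590 to 9381 reads per read of let-7i-3p in NXT-Exo and 894 in Ctl-Exo 5, the highest value resting on 2 reads of let-7i-3p in NXT-Exo 4. miR-98-5p had 66.3 to 188 reads per read of miR-98-3p in NXT-Exo and 166 in Ctl-Exo 5, from 2 to 10 reads of the 3p arm. let-7e-5p had 58.6 reads per read of let-7e-3p in Ctl-Exo 5 and 74.5 to 490 in 4 NXT-Exo libraries, while NXT-Exo 4 had 0 reads of let-7e-3p. The value of 490 rested on 1 read of let-7e-3p in NXT-Exo 1, and without it the highest was 88.3, from 5 to 13 reads of the 3p arm in the other libraries that had any.

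**Figure D4:**
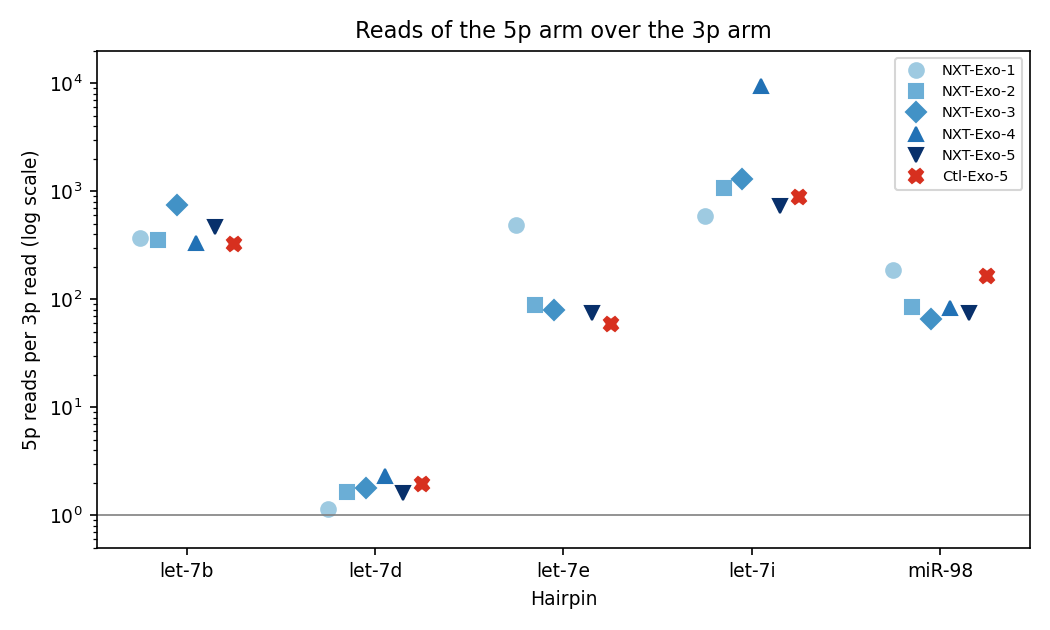
Reads of the 5p arm per read of the 3p arm (log axis) for 5 hairpins in the 5 NXT-Exo libraries (blue) and Ctl-Exo 5 (red cross), with the line at 1 marking equal reads. let-7d lies between 1.14 and 2.32, the other hairpins lie above 58, and let-7e in NXT-Exo 4 is left out because its 3p arm had 0 reads.

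Several members share a chromosomal neighbourhood with miRNAs of the miR-99, miR-100 and miR-125 families, which are also known from development and blood cell formation. Of the 5 such miRNAs in the list, edgeR called 0, with 0 at an unadjusted p under 0.05 and a median log2 fold change of 0.07. let-7e-5p was below its neighbours, with 0.085 reads per read of miR-99b-5p as the geometric mean of NXT-Exo and 0.073 in Ctl-Exo 5, and with 0.23 and 0.17 reads per read of miR-125a-5p. let-7c-5p exceeded miR-99a-5p by 0.75 ± 0.37 (log2 ratio, SD, n = 5) in NXT-Exo and by 1.04 in Ctl-Exo 5, and let-7a-5p exceeded miR-100-5p by 2.88 ± 0.47 and 3.00. let-7f-5p, whose second gene neighbours that of miR-98, had 8.14 ± 0.25 (log2 ratio to miR-98-5p, SD, n = 5) in NXT-Exo and 7.96 in Ctl-Exo 5. For each of these ratios the control value lay within the NXT-Exo range. Those of let-7c-5p, let-7a-5p and let-7f-5p include reads from their genes elsewhere.

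Finally, the miRNAs whose levels were most like the summed family were sought among the 220 other miRNAs that averaged 100 reads or more. The 5 most alike over the 6 libraries were miR-144-5p (Pearson r = 0.99), miR-15b-5p (0.96), miR-144-3p (0.95), miR-26a-5p (0.93) and miR-486-y (0.93), whereas the median over the 220 was -0.06. Spearman's rho for these was 0.94, 0.83, 0.83, 0.89 and 1, in the same order. miR-144, both arms of which are in this group, is an erythroid miRNA. miR-144-5p was at 229, 347, 489, 352 and 398 CPM in NXT-Exo 1 to 5 and at 429 CPM in Ctl-Exo 5, so it was lowest in NXT-Exo 1 and highest in NXT-Exo 3, as the family was. The summed red blood cell miRNAs, which were almost entirely miR-486, were likewise lowest in NXT-Exo 1 (166691 CPM) and highest in NXT-Exo 3 (261300 CPM). All 5 were lowest in NXT-Exo 1, but miR-451-5p was highest in NXT-Exo 4 (3090 CPM against 2249 CPM in NXT-Exo 3) and miR-16-5p in Ctl-Exo 5 (3742 CPM against 3048 CPM in NXT-Exo 3). NXT-Exo 1 and NXT-Exo 3 were the 2 libraries farthest from the median of the family. Without them, over 4 libraries, r was 0.90 for miR-144-5p, 0.62 for miR-15b-5p and -0.12 for miR-144-3p. It was 0.78 for miR-26a-5p and 0.94 for miR-486-y, so the likeness of miR-144-3p rested on NXT-Exo 1 and NXT-Exo 3. These correlations were picked as the highest of 220 over libraries that share their scaling, and no p-value is given. The part of red blood cells in the family level was not tested.

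**Figure D5:**
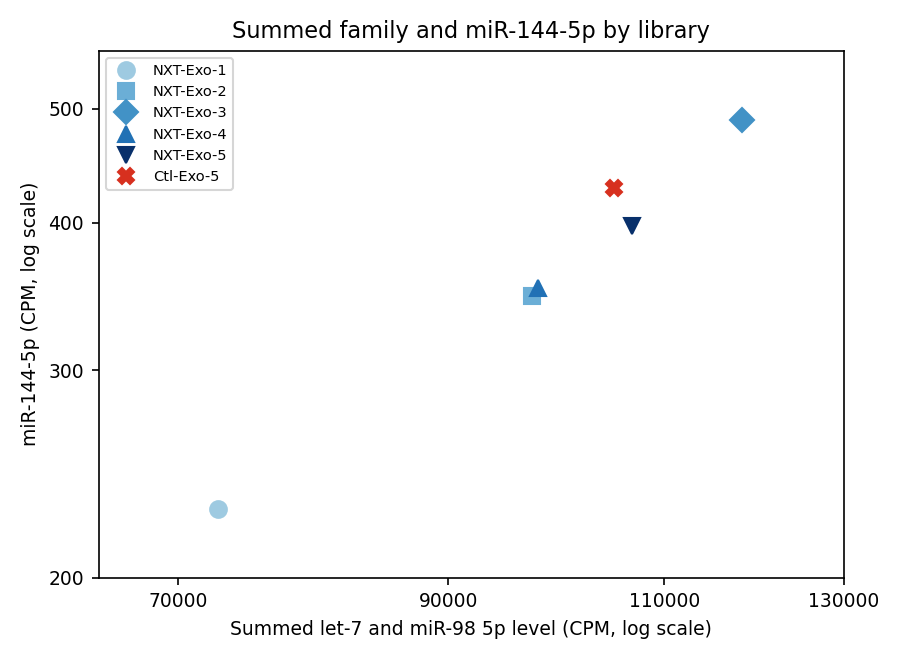
Summed family level (x axis, CPM, log scale) against miR-144-5p (y axis, CPM, log scale) in the 5 NXT-Exo libraries (blue) and Ctl-Exo 5 (red cross). NXT-Exo 1 is lowest on both axes (72618 and 229 CPM) and NXT-Exo 3 highest (118293 and 489 CPM), with Ctl-Exo 5 among the others.

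The sum of the 5 liver miRNAs, carried by miR-122-5p and miR-192-5p, was highest in the library where the family was lowest. It was 25413 CPM in NXT-Exo 1, 10858 to 12816 CPM among NXT-Exo 2 to 5 and 7956 CPM in Ctl-Exo 5. miR-122-5p (18085 CPM) and miR-122-3p (44.4 CPM) were highest in NXT-Exo 1, whereas miR-192-5p, miR-194-5p and miR-802-5p were highest in other NXT-Exo libraries, and miR-802-5p had 0 reads in NXT-Exo 2 and Ctl-Exo 5. Of these 5, edgeR called 0, none had a log2 fold change below 0 (median 1.32), and 1 (miR-122-5p, 1.60) had an unadjusted p under 0.05, with adjusted p = 0.77. Among all 736 miRNAs tested, 47% were below 0 and the median was 0.05. Within the list the values ran from 0.00043 for miR-194-5p to 5.71 ± 3.49 (SE) for miR-802-5p, which was at or under 5.35 CPM in every library. The part of liver RNA in the family level was not tested. Without NXT-Exo 1 the family share was 0.90 percentage points higher in NXT-Exo than in Ctl-Exo 5, against 0.20 with it. Without NXT-Exo 3, 4 or 5 the difference was -0.07, -0.10 and -0.05, the other way, and it was 0.34 without NXT-Exo 2 and 1.21 with the NXT-Exo median. All of these were smaller than the SD of 1.72 over all 5 NXT-Exo libraries. That SD includes NXT-Exo 1, so it does not measure the spread among the libraries left without it.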

How the data were processed

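Small RNA of serum exosomes was sequenced (TruSeq Small RNA kit). Per the labels, ACGT101-miR took out adapter dimers, junk, other RNA classes and repeats before the authors deposited counts of reads per miRNA sequence. The processing notes name the genome build Rnor 6.0. The aligner and miRNA database release are not given in the sources used here. The deposited TPM values, which the authors computed per library without division by length, served only for 1 alternative share. The 8 columns of other Ctl-Exo libraries were not used.

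Counts were scaled with edgeR 4.0.16 (TMM, R 4.3.3) and tested with its quasi-likelihood test, NXT-Exo against Ctl-Exo 5, over 736 miRNAs with at least 10 summed reads, with Benjamini-Hochberg adjustment. SEs were derived from the log2 fold change and F. The alternatives were DESeq2 1.42.0, other factors and filters, and leaving out each NXT-Exo library. Python 3.11.15 with scipy 1.17.1 computed shares, Wilson intervals and sign-flip tests. edgeR was tested on simulated data. Every pair of libraries differed beyond counting noise (chi-square per degree of freedom at least 41.8), so none was treated as a duplicate deposit, which does not show that they came from separate rats. All members were named, with 5 lists (3p arms, neighbours, red cell, platelet and white cell, liver), the 5 most alike miRNAs and all sequences with the seed. Members and lists were chosen with earlier results of these data known. Depth limits mainly the 3p arms.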

Additional observations from a re-analysis of the deposited data

How the results depend on the processing

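No paired analysis was possible because replicate number 5 is the only one in both groups. No alternative called a member or any other miRNA, and the number of miRNAs at an unadjusted p under 0.05 was 24 to 46 under other scalings, filters and tools and 25 to 53 without each NXT-Exo library. Compared with TMM over the tested miRNAs, scaling to the listed total moved the median of all miRNAs from 0.05 to 0.16 (log2). The near-zero log2 fold changes of let-7f-5p, let-7a-5p and let-7i-5p changed sign, in this order, to 0.033, 0.023 and 0.0084 with DESeq2 size factors in edgeR, to 0.093, 0.078 and 0.075 with the listed total only, to 0.063, 0.056 and 0.037 with TMM without the members, to 0.033, 0.023 and 0.0084 in DESeq2, to 0.046, 0.035 and 0.022 with no filter beyond 1 read, and to 0.030, 0.016 and 0.0084 with a mean of at least 10 reads. Without each NXT-Exo library in turn they ranged from -0.12 to 0.14, from -0.13 to 0.11 and from -0.11 to 0.10, and let-7d-5p from -0.22 to 3.8e-05. The cause was not tested. Leaving out 1 of the 5 NXT-Exo libraries, or taking their median, cannot shift a share difference by the full SD over all 5. These alternatives therefore do not test whether the shares are stable. The let-7f-5p difference rose from 1.76 percentage points (SD 1.90) to 2.55 without NXT-Exo 1 and 2.35 with the median. It was 1.37 to 1.83 without any other NXT-Exo library. Pooled reads (member shares) and other totals (family share) shifted each difference by an amount smaller than its SD. Among these, the TPM total was added after the data were seen. The difference in family share ranged from -0.10 to 0.90 percentage points without each NXT-Exo library. The number of the 8 neighbouring pairs with a mean ratio above its SD was 6, and 5 to 7 without each NXT-Exo library.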
